A study of Homo sapiens with 5 samples.

Results

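The genes described here are 34 members of the homologous recombination and Fanconi anemia pathways, taken by symbol from a deposited table of 58174 genes. Each of the 34 symbols matched 1 row. The table holds RNA abundance in Ishikawa cells, an established line from human endometrial carcinoma, as TPM (a transcript level scaled for gene length and for the library's total). Cells of 3 libraries (sh-LINC00958) had been infected with a lentivirus carrying a short hairpin RNA against the long non-coding RNA LINC00958. Cells of 2 libraries (sh-NC) were the negative control, whose label also names a short hairpin. Below, hairpin libraries are those of sh-LINC00958. All 5 libraries came from the same line. For both groups the treatment protocol gives selection with puromycin at 2.5 µg/ml, begun 72 h after infection. The labels give neither the hairpin sequences nor whether a group was 1 infected pool, and they do not say whether each library had a culture of its own. The p-values therefore measure only the spread between these libraries, which may be technical. The comparison asks which of these repair genes differ in RNA level when LINC00958 is lowered with a hairpin.

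Homologous recombination repairs a broken chromosome by copying the intact sister chromatid, and so works mainly after DNA replication. The broken ends are trimmed to single strands, BRCA1 and BRCA2 complexes ready them for strand exchange, and the resulting joint molecules are taken apart or cut. The Fanconi pathway acts on crosslinks between DNA strands: a core complex of FANC proteins attaches ubiquitin to the FANCD2-FANCI clamp, which calls in nucleases and recombination factors. The kinases ATM and ATR and the checkpoint kinases CHEK2 and CHEK1 halt the cell cycle while damage is present. Many of these genes are transcribed most strongly in cells that are replicating.

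LINC00958 itself stood at 67.2, 67.1 and 58.4 TPM in sh-LINC00958 and at 119.3 and 137.4 TPM in sh-NC. Its log2 fold change was -0.99 (limma adjusted p = 0.0119). That call was lost without sh-LINC00958 replicate 1 (adjusted p = 0.0545), sh-NC replicate 1 (0.0672) or sh-NC replicate 2 (0.0874). The line was checked against 10 epithelial and endometrial markers. Of these, 8 had a mean of at least 1 TPM and together summed to between 2398 and 2573 TPM per library with the other 2 included. Within that sum single markers moved in opposite directions. KRT18, a keratin, rose (0.44, adjusted p = 0.0211), and KRT8 and KRT19 also lay wholly above the controls. CLDN4, a tight junction claudin, fell from 12.8 and 44.8 TPM to between 2.76 and 3.67 TPM (-2.54, adjusted p = 0.0335), and EPCAM, PAX8 and SOX17 lay wholly below the controls. The KRT18 call was lost without any library but sh-LINC00958 replicate 2 (adjusted p from 0.0620 to 0.127) and the CLDN4 call without any but sh-NC replicate 1 (0.0620 to 0.107). The part of these shifts in the repair gene values was not tested. The 2 markers under 1 TPM were the hormone receptor genes ESR1 and PGR, each listed at 0 in 4 of 5 libraries and below 0.03 TPM in the remaining one. Of 16 markers of fibroblasts, blood, endothelium and kidney or neural lines, 4 were at 0 throughout, DCN and CD3E among them. That whole list summed to between 15.1 and 17.8 TPM in sh-LINC00958 and to 18.9 and 16.5 TPM in sh-NC, and 5 of its genes had a mean of at least 1 TPM. Sequencing depth is unknown because TPM keeps none, so no counting interval can be given.

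As a group, 4 of the 33 testable genes fell in sh-LINC00958 and 0 rose, while 29 did not pass the test. FANCF, a subunit of the Fanconi core complex, had between 0.776 and 1.08 TPM and did not reach the filter of a mean of 1 TPM, so it was not tested. The 4 that fell were RBBP8, BRIP1, CHEK1 and FANCB. Calls were made with limma on log2(TPM + 1) over all 17049 genes that passed the filter, at a Benjamini-Hochberg adjusted p under 0.05. In that fit 9.8% of all genes were called, 5.68% lower and 4.12% higher. Of the 33 repair genes 12.1% were called, each of them lower, and with 33 genes that share rests on 4 calls. At an unadjusted p under 0.05 there were 11 lower and 3 higher. The median log2 fold change was -0.21 over the 33 genes and 0.00 over all tested genes, and 24 of the 33 fitted changes were below 0, beside 49.8% of all. For 15 genes every sh-LINC00958 library lay below every sh-NC library, for 4 genes every one lay above, and for 14 the groups overlapped. Among all tested genes, 25.5% lay wholly below and 24.4% wholly above. Summed over the 34 genes, the level ran from 948 to 1037 TPM in sh-LINC00958 and reached 1138 and 1222 TPM in sh-NC. A lower level in such bulk RNA cannot tell fewer cells of a cycle stage from less RNA per cell.

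**Figure D1:**
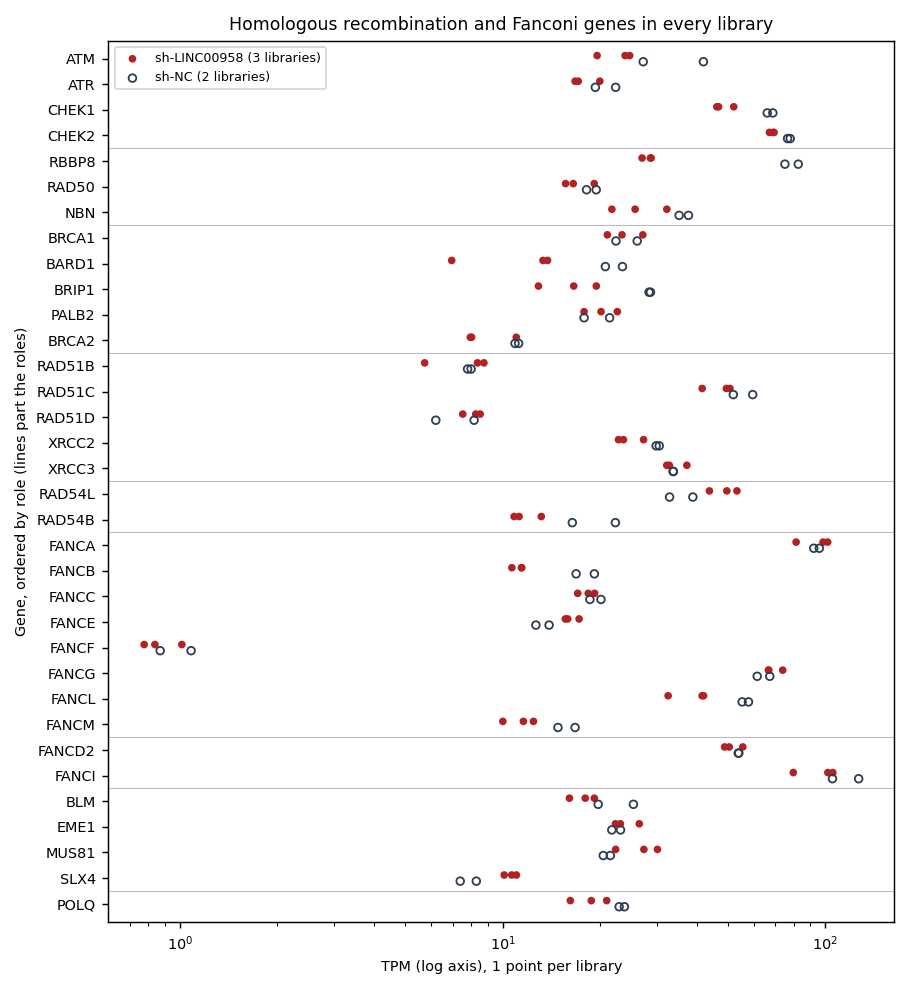
TPM of each of the 34 genes in every library on a log axis, with genes in rows ordered by role, filled red points for the 3 sh-LINC00958 libraries and open points for the 2 sh-NC libraries. RBBP8 shows the widest gap, with 27.1 to 28.9 TPM against 75.0 and 82.5 TPM, while BRCA1, PALB2 and FANCA overlap.

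Break sensing and end resection held the gene with the largest change. RBBP8, which encodes CtIP, the factor that starts the trimming of broken ends together with the MRE11-RAD50-NBN nuclease, measured 27.1, 28.7 and 28.9 TPM in sh-LINC00958. In sh-NC it measured 75.0 and 82.5 TPM. The groups were far apart and the libraries within each were close, with a coefficient of variation of 3.55% in sh-LINC00958 and 6.73% in sh-NC. Its mean was 28.2 ± 1.003 TPM (SD, n = 3) against 78.7 ± 5.30 TPM (SD, n = 2), or 35.8% of the control level. On the log2 scale RBBP8 changed by -1.45 ± 0.0888 (SE, limma adjusted p = 0.00482), and the 95% interval ran from -1.66 to -1.23. Permuting the 5 libraries (exact, two-sided) gave p = 0.1, the smallest that 3 against 2 allow. RBBP8 went from the third highest level of the 34 genes in sh-NC to rank 11 in sh-LINC00958. Its fold change was rank 50 from the lowest among the 17049 tested genes. The RBBP8 call was lost without sh-NC replicate 2 (adjusted p = 0.0572), although the log2 fold change there was still -1.38.

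RAD50 and NBN, the other members of this role, did not pass. NBN, the nibrin subunit that brings ATM to breaks, measured 25.8, 32.3 and 21.8 TPM in sh-LINC00958 and 35.3 and 37.7 TPM in sh-NC. All 3 libraries lay below the controls, but they differed among themselves, and the adjusted p was 0.135 (limma, log2 fold change -0.46, 95% interval -0.87 to -0.04). Without sh-LINC00958 replicate 2, the highest of its group, the NBN log2 fold change was -0.60 and the adjusted p was 0.0409. RAD50, the coiled-coil ATPase that tethers the ends, overlapped between groups at 15.7 to 19.2 TPM and 18.2 to 19.5 TPM (log2 fold change -0.13, 95% interval -0.43 to 0.16). Most of the annotated RAD50 exon sequence (79.7%) is shared on the same strand with AC116366.3, listed at 0.830 TPM on average, so its value is less certain.

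Among 5 genes of the BRCA1 and BRCA2 complexes 1 fell and 4 did not pass. BRIP1, the helicase that binds the BRCA1 carboxyl terminus and is also known as FANCJ, fell from 28.7 and 28.4 TPM in sh-NC to 16.6, 19.5 and 12.9 TPM in sh-LINC00958. The 2 controls were nearly equal and the 3 hairpin libraries spread over a range wider than that between the controls. The BRIP1 mean of 16.4 ± 3.31 TPM (SD, n = 3) was 57.2% of the control mean of 28.6 ± 0.205 TPM (SD, n = 2), with a log2 fold change of -0.79 ± 0.174 (SE, limma adjusted p = 0.0457). The BRIP1 call was lost without sh-LINC00958 replicate 1 (adjusted p = 0.127) or 3 (0.0705) and without sh-NC replicate 1 (0.179) or 2 (0.188).

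BARD1, the partner with which BRCA1 forms its ubiquitin ligase, showed a larger fitted change than BRIP1 that did not pass. It measured 6.96, 13.3 and 13.8 TPM in sh-LINC00958 and 20.8 and 23.5 TPM in sh-NC. Replicate 1 stood well below the other 2 hairpin libraries, and all 3 lay below the controls. BARD1 was at -0.96 on the log2 scale (limma adjusted p = 0.0881), with a 95% interval from -1.66 to -0.26. BRCA1 itself, the scaffold of these complexes, had 23.5, 27.2 and 21.1 TPM against 26.1 and 22.5 TPM, overlapping groups with a log2 fold change of -0.02 (95% interval -0.36 to 0.31). Within libraries the ratio of BARD1 to BRCA1 levels was 0.297, 0.491 and 0.653 in sh-LINC00958 and 0.797 and 1.05 in sh-NC. The ratio of BRIP1 to BRCA1 was 0.709, 0.718 and 0.611 against 1.10 and 1.27. In both ratios the hairpin libraries lay wholly below the controls. Of 9 pairs of partners, paralogs or kinases set side by side, the ratio lay wholly below the controls in 7. It lay wholly above in 1 (PALB2 to BRCA2, 2.54, 2.06 and 2.23 against 1.59 and 1.96) and overlapped in 1 (FANCI to FANCD2). Which gene was divided by which was a free choice, so below and above carry no meaning across pairs. The EME1 to MUS81 ratio lay apart only narrowly (0.878, 0.998 and 0.846 against 1.13 and 1.01). Of single tested genes 49.9% had groups apart either way, and no such share was taken for pairs. The pairs were chosen after the levels were seen and were not tested.

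BRCA2, which readies single strands for exchange, and PALB2, which joins BRCA2 to BRCA1, overlapped between groups. BRCA2 had 7.95, 11.0 and 8.02 TPM against 11.2 and 10.9 TPM (log2 fold change -0.29, 95% interval -0.69 to 0.12). PALB2 had 20.2, 22.7 and 17.9 TPM against 17.9 and 21.5 TPM (0.04, 95% interval -0.31 to 0.38). Differences smaller than these intervals cannot be seen with 5 libraries.

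Of the kinases, CHEK1 fell and the other 3 did not pass. CHEK1, the effector kinase of ATR that guards replication forks and delays mitosis, had 46.7, 52.0 and 46.1 TPM in sh-LINC00958 and 66.1 and 68.8 TPM in sh-NC. The groups lay apart by more than the spread within either. Its mean was 48.3 ± 3.26 TPM (SD, n = 3) against 67.4 ± 1.90 TPM (SD, n = 2), 71.6% of control, and its log2 fold change -0.48 ± 0.0900 (SE, limma adjusted p = 0.0336). Leaving out sh-LINC00958 replicate 1 (adjusted p = 0.120) or 3 (0.0850) or sh-NC replicate 1 (0.145) or 2 (0.172) ended the CHEK1 call. CHEK2, the effector of ATM, lay between 67.1 and 69.4 TPM against 76.4 and 77.9 TPM, tight and apart but with a small log2 difference of -0.17 (limma adjusted p = 0.177, 95% interval -0.35 to 0.01).

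ATM, the kinase that answers double-strand breaks, had 24.0, 24.8 and 19.6 TPM against 27.3 and 41.9 TPM. The 2 controls differed by more than the lower control differed from the hairpin libraries. The ATM log2 fold change was -0.56 (95% interval -1.05 to -0.06, limma adjusted p = 0.131). ATR, which answers stalled forks, overlapped at 16.8 to 20.02 TPM and 19.4 to 22.4 TPM (log2 fold change -0.21, adjusted p = 0.318).

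The paralogs RAD51B, RAD51C, RAD51D, XRCC2 and XRCC3, which form small complexes that assist strand exchange, gave 0 calls among 5 (1, XRCC2, had an unadjusted limma p under 0.05). XRCC2 lay at 23.7, 27.4 and 22.9 TPM against 29.9 and 30.6 TPM (log2 fold change -0.29, adjusted p = 0.141). RAD51C, which sits in both paralog complexes, had 41.5 to 50.7 TPM against 51.9 and 59.6 TPM (-0.24). RAD51B, RAD51D and XRCC3 overlapped between groups, with log2 fold changes of -0.06, 0.16 and 0.01. For XRCC3, 76.7% of the annotated exon sequence overlaps KLC1 on the opposite strand, and the strand setting of the counting is not given in the sources used here, so reads of these genes may not have been told apart.

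The DNA motors that help strands invade and move along duplex DNA pointed in opposite directions, and neither passed. RAD54L had 49.5, 43.8 and 53.2 TPM against 38.9 and 32.9 TPM, all higher than the controls, at 0.43 on the log2 scale (limma adjusted p = 0.0792, 95% interval 0.13 to 0.74). RAD54B, its paralog, had 11.3, 13.2 and 10.9 TPM against 16.5 and 22.4 TPM, all lower (-0.67, 95% interval -1.07 to -0.26, adjusted p = 0.0586). The RAD54B to RAD54L ratio was 0.227, 0.301 and 0.204 against 0.423 and 0.679. RAD54B was called lower with median-ratio scaling (adjusted p = 0.0486), with quantile normalization (0.0486) and with a filter at 5 TPM (0.0478). RAD54B shares 59.1% of its exon sequence with FSBP on the same strand, and 25.1% of RAD54L exon sequence overlaps LRRC41 on the opposite strand, so both values carry that uncertainty.

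In the Fanconi core complex 1 of 7 tested subunits fell. FANCB, an X-linked subunit that pairs with FANCL and FAAP100 in the catalytic module, measured 11.5, 11.5 and 10.7 TPM in sh-LINC00958 and 16.9 and 19.3 TPM in sh-NC. The hairpin libraries were nearly equal and lay below both controls. The FANCB mean of 11.2 ± 0.443 TPM (SD, n = 3) was 62.0% of the control mean of 18.1 ± 1.66 TPM (SD, n = 2), with a log2 difference of -0.64 ± 0.111 (SE, limma adjusted p = 0.0285). The FANCB adjusted p was 0.0995 and 0.0741 without sh-LINC00958 replicates 1 and 3, and 0.116 and 0.160 without sh-NC replicates 1 and 2. FANCL, the ubiquitin ligase of the complex, followed at 41.5, 42.0 and 32.6 TPM against 55.3 and 57.8 TPM (-0.54, 95% interval -0.87 to -0.22) and did not pass (adjusted p = 0.0563). It was called lower with median-ratio scaling (adjusted p = 0.0442), quantile normalization (0.0455) and a filter at 5 TPM (0.0459). An annotated 18.7% of FANCL exon sequence overlaps VRK2 on the opposite strand.

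FANCM, the translocase that brings the core complex to stalled forks, had 11.6, 12.5 and 10.0 TPM against 14.9 and 16.8 TPM, all below the controls (log2 fold change -0.45, limma adjusted p = 0.0868). The remaining 4 tested core subunits did not pass. FANCE had 17.3, 15.9 and 15.7 TPM against 13.9 and 12.7 TPM, all higher (0.27, adjusted p = 0.154). FANCA, FANCC and FANCG overlapped between groups, with log2 fold changes of -0.01, -0.08 and 0.10. FANCA and FANCG were also among the most abundant of the 34 genes, at 93.99 and 64.4 TPM in sh-NC. ZNF276 on the opposite strand overlaps 23.6% of FANCA exon sequence.

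The clamp that the core complex modifies did not pass for either subunit. FANCD2 had 50.4, 55.5 and 48.8 TPM against 54.0 and 53.8 TPM (log2 fold change -0.06, 95% interval -0.28 to 0.16). FANCI, with the highest level of all 34 genes in both groups, ran from 79.6 to 105.6 TPM in sh-LINC00958 and stood at 105.3 and 126.9 TPM in sh-NC (-0.28, 95% interval -0.65 to 0.09). The groups overlapped for both genes.

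Enzymes that take joint molecules apart, and the alternative end-joining polymerase, gave 0 calls among 5 with limma (1, SLX4, had an unadjusted p under 0.05). SLX4, the scaffold that gathers structure-specific nucleases, had 11.0, 10.7 and 10.1 TPM against 8.29 and 7.39 TPM, all higher than the controls (log2 fold change 0.39, 95% interval 0.11 to 0.68, adjusted p = 0.0857). MUS81, a nuclease that SLX4 binds, had 30.2, 22.4 and 27.4 TPM against 20.5 and 21.6 TPM (0.32, adjusted p = 0.192). CFL1, at a mean of 635 TPM, overlaps 13.9% of MUS81 exon sequence on the opposite strand. EME1, the partner of MUS81, overlapped between groups (0.09). LRRC59, at a mean of 221 TPM, overlaps 16.4% of EME1 exon sequence on the opposite strand.

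BLM, the helicase that dissolves double Holliday junctions, had 18.04, 19.3 and 16.1 TPM against 19.8 and 25.4 TPM, apart by less than the gap between the controls (log2 fold change -0.32, limma adjusted p = 0.192). POLQ, which joins ends through short matching stretches where recombination fails, had 18.8, 21.0 and 16.2 TPM against 23.9 and 23.0 TPM (-0.32, adjusted p = 0.164).

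**Figure D2:**
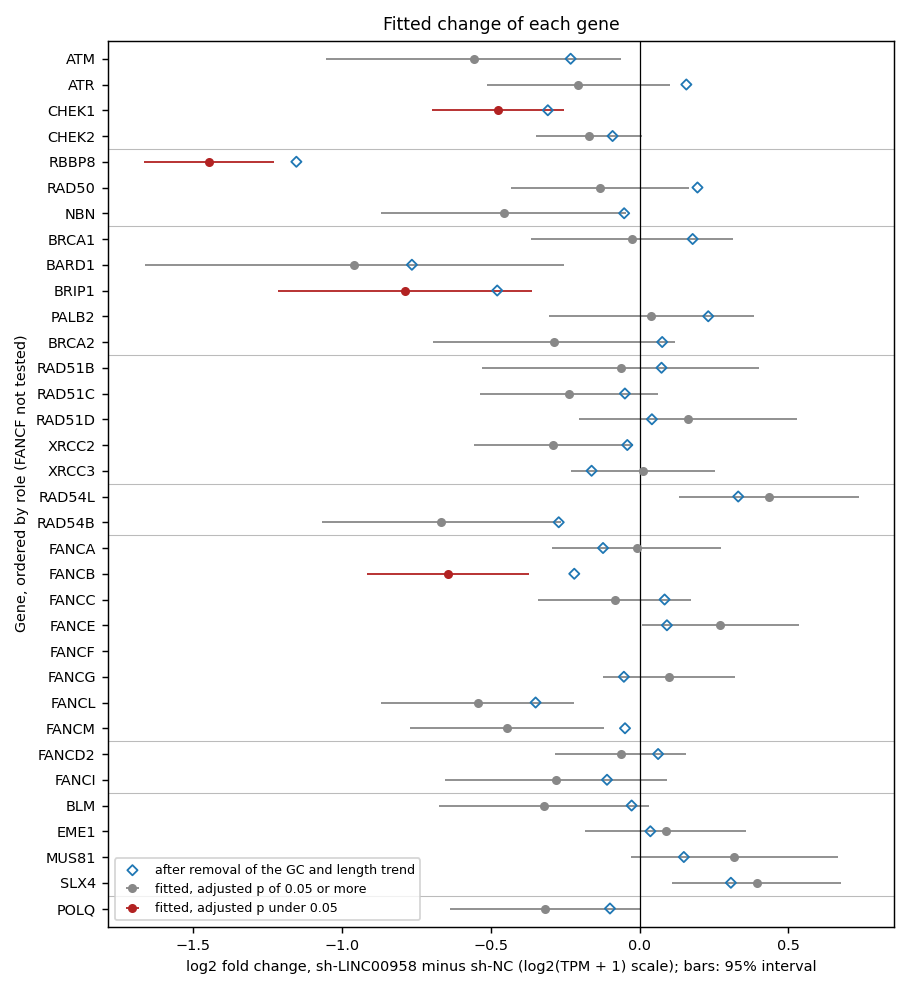
Fitted log2 fold change of the 33 tested genes (points, with bars for the 95% interval) and the same after the trend with GC content and length was removed (open diamonds). RBBP8 lies farthest from 0 at -1.45 and remains at -1.15, while FANCB moves from -0.64 to -0.22.

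The 4 genes that fell were placed on the genome (GRCh38, GENCODE release 29) and their promoters read from RefSeq (GRCh38.p14), to show what sequence they start from. RBBP8 lies on the plus strand of chromosome 18 from 22798261 to 23026488, BRIP1 on the minus strand of chromosome 17 from 61681266 to 61863521, CHEK1 on the plus strand of chromosome 11 from 125625136 to 125676255, and FANCB on the minus strand of chromosome X from 14835961 to 14873069. Each sequence below is the part of the 250 bases before the most upstream RefSeq start that lies outside annotated exons, from 5′ to 3′ on the gene's strand. Capitals mark CCAAT (the letters bound by NF-Y) or TTTGAA (the cell cycle homology region, CHR) on either strand, which do not overlap here. The windows are chr18:22933078-22933314 for RBBP8, chr17:61863529-61863778 for BRIP1, chr11:125626035-125626223 for CHEK1 and chrX:14873070-14873319 for FANCB. Those of RBBP8 and CHEK1 lie within the longer GENCODE gene models, in introns.
RBBP8: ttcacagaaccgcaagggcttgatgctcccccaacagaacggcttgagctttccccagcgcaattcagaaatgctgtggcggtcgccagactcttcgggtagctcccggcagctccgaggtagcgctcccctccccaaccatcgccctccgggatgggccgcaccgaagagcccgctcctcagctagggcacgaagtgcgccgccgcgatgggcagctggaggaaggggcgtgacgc
BRIP1: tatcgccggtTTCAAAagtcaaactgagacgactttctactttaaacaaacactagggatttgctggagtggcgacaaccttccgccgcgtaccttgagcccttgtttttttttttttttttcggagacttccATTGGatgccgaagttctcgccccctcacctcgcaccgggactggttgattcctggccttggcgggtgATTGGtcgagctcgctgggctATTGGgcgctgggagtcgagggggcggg
CHEK1: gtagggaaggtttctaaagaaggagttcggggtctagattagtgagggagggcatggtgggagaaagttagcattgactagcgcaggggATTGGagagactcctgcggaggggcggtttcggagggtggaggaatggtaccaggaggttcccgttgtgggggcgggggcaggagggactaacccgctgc
FANCB: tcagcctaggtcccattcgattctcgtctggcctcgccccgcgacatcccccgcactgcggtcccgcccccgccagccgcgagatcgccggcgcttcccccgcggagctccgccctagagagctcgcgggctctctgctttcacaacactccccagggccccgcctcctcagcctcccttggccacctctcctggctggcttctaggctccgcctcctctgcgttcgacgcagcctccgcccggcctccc

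These promoters share no one motif among those searched. The BRIP1 window held 3 CCAAT matches and 1 TTTGAA match, the CHEK1 window 1 CCAAT match, and the RBBP8 and FANCB windows none. Neither form of the E2F site searched, TTTCCCGC or TTTGGCGC, was present in the 4 windows. Among 41 RefSeq promoter entries for 31 of the 34 genes, 1 held an E2F form (2.44%, against 1.93% of 35116 entries of all genes and 3.05% of 10290 tested genes at 1 entry each). CCAAT was in 17 of the 41 (41.5%, against 32.0% and 35.0%) and TTTGAA in 4 (9.76%, against 13.3% and 8.37%). For the E2F forms and TTTGAA the share thus lay between those of the 2 backgrounds. FANCI, NBN and RAD54B were not matched in that table. A match of letters is a description, not a site, and a missing match says only that these letters are not in the window. GC content of the printed windows was 65.8% for RBBP8, 54.0% for BRIP1, 59.3% for CHEK1 and 71.6% for FANCB.

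Transcript GC content moved with the direction of change. The 33 tested genes ran from 36.6% GC (FANCB) to 60.6% GC (XRCC3), and over them the Pearson correlation of GC content with the log2 fold change was 0.69 (Spearman 0.77), as a description across genes that share the same 5 libraries. Over 16999 tested genes with a GC value it was 0.42 (Spearman 0.48). With all tested genes split by GC into 4 equally filled bins, 20 of the 33 fell in the lowest bin (up to 43.4% GC). Of these 20, 3 were called lower, beside 14.6% of all genes in that bin. Fitted changes below 0 were seen in 19 of the 20, against 80.7%, and 13 of the 20 lay wholly below the controls, against 52.6%. In the lowest bin the median log2 fold change was -0.32 for these genes and -0.28 for all genes. At the other end, the 9 genes in the upper 2 bins gave 8 fitted changes above 0, with FANCA the exception, where 36.0% and 24.6% of all genes in those bins were below 0. Of these 9, limma called 0 (3, RAD54L, SLX4 and FANCE, had an unadjusted p under 0.05), beside 5.13% and 8.28% of all genes called higher in those bins. In the second bin CHEK1 was called among 4, beside 5.2% of all called lower.

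**Figure D3:**
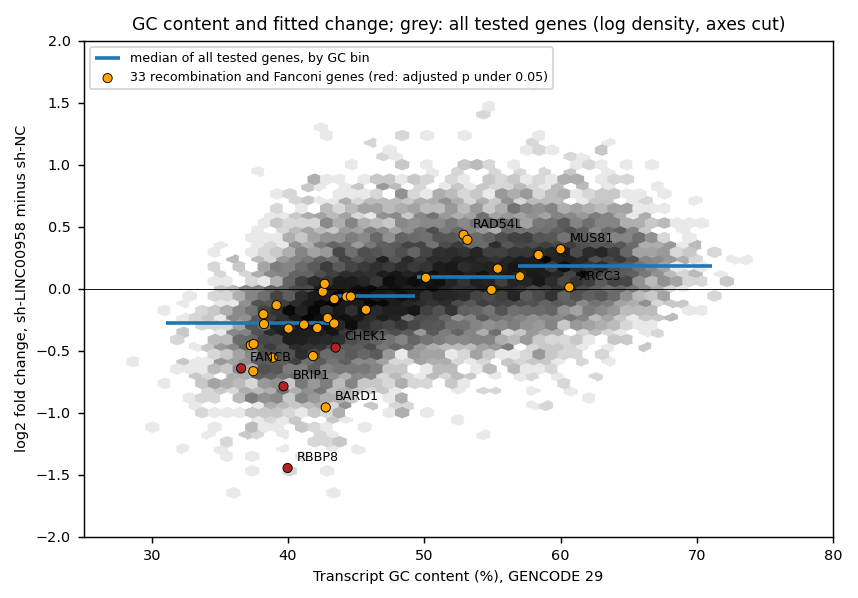
Transcript GC content against log2 fold change for all tested genes (grey density), with the median of each GC bin (blue lines) and the 33 recombination and Fanconi genes (orange points, red where called). The genes follow the slope of the background from low to high GC, and RBBP8 at 39.97% GC lies well below the median of its bin, -0.28.

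After the GC and length trend was removed from each library, 1 of the 33 genes was called, against 5.03% of all genes. That gene was RBBP8, at a log2 fold change of -1.15 (limma adjusted p = 0.00769), rank 84 from the lowest. CHEK1 came to -0.31 (adjusted p = 0.0646), BRIP1 to -0.48 (0.1101) and FANCB to -0.22 (0.275). BARD1 was at -0.77 (0.176) and RAD54L at 0.33 (0.161). The median over the 33 genes was -0.05, against -0.01 over all, with 19 below 0. From below 0 to above it passed 7 genes, namely ATR (0.16), RAD50 (0.19), BRCA1 (0.18), BRCA2 (0.08), RAD51B (0.07), FANCC (0.08) and FANCD2 (0.06). In the other direction passed 2, XRCC3 (-0.16) and FANCG (-0.05). None of these 9 was called in either fit. Whether the GC trend arose in the cells or in the libraries was not tested.

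**Figure D4:**
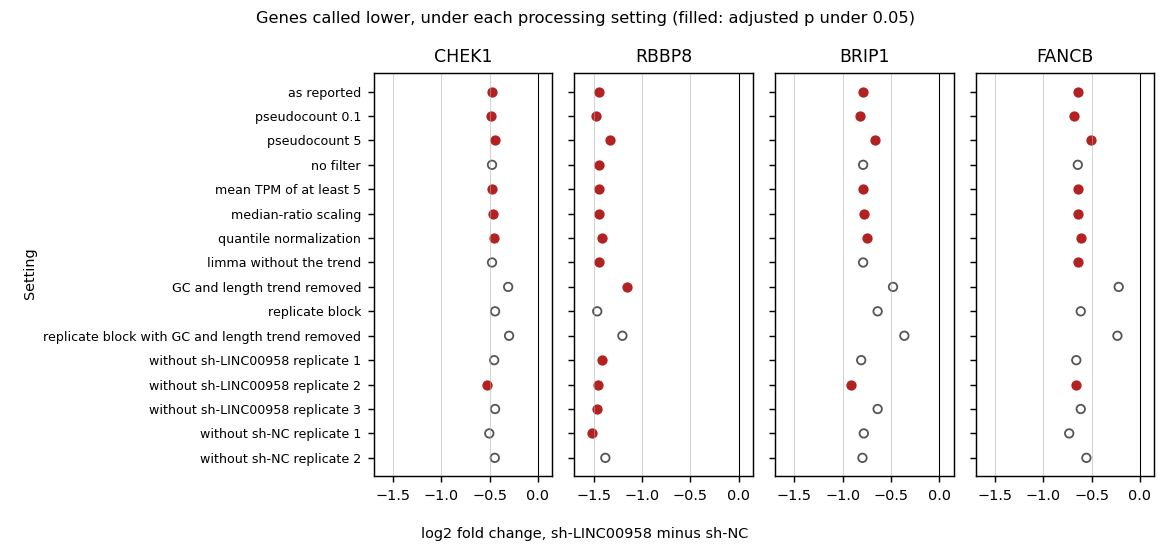
Log2 fold change of CHEK1, RBBP8, BRIP1 and FANCB under each processing setting, in rows, with filled points where the adjusted p was under 0.05. RBBP8 is filled in 12 of 15 alternatives and CHEK1 in 6.

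Across settings the number of the 33 genes called lower changed, and not always in step with the share of all genes called lower. It was 4 with a pseudocount of 0.1 (5.47% of all genes lower) or 5 (6.06%), and 6 with a filter at 5 TPM (8.99%), median-ratio scaling (6.41%) or quantile normalization (6.03%). It was 1 without a filter (0.763%), 2 without limma's trend (3.04%) and 1 with GC and length taken out (2.73%). Leaving out sh-LINC00958 replicate 1, 2 or 3 gave 1 (0.316%), 5 (8.74%) and 1 (0.872%). Leaving out sh-NC replicate 1 or 2 gave 1 (0.0704%) and 0 (0.0352%).

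Around these 34 genes, other genes of DNA repair were counted in the same fit, and the share called differed from list to list. Among 51 other tested genes of recombination and the Fanconi pathway, 7 fell, 0 rose and 44 did not pass, 13.7% called against 9.8% of all genes (7 higher and 16 lower at an unadjusted limma p under 0.05). The median log2 fold change was -0.11. The smallest p belonged to HELLS, a chromatin remodelling ATPase, at 46.5 ± 1.74 against 106.1 ± 7.79 TPM (log2 fold change -1.17, adjusted p = 0.00591; SD, n = 3 and 2 here and below). RAD51AP1, an accessory factor of strand exchange, went from 140.9 ± 6.51 to 79.9 ± 5.42 TPM (-0.81, adjusted p = 0.0120). RMI1, a partner of BLM in dissolution, went from 50.9 ± 0.136 to 31.8 ± 0.963 TPM (-0.66), and the resection nuclease DNA2 from 67.0 ± 1.15 to 45.3 ± 0.576 TPM (-0.56). EXO1, the other long-range resection nuclease, also fell (-0.63), as did USP1 (-0.76), which removes ubiquitin from the clamp, and the ubiquitin ligase gene RFWD3 (-0.38). HELLS, USP1 and RFWD3 were still called once the dependence on GC and length had been taken out. This count of 7 lower became 2 without sh-LINC00958 replicate 1, 2 without replicate 3 and 0 without either control library.

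Partners of ATM and ATR signalling gave 1 fall among 22 (4.55%, against 5.68% of all genes) and 0 rises (3 at an unadjusted limma p under 0.05). The fall was that of RIF1, a shield against resection (-0.52, limma adjusted p = 0.0407). Classical end joining, which rejoins ends without a template, gave 1 fall among 12 (8.33%, against the same 5.68%) and 0 rises (0 unadjusted). Here the ligase gene LIG4 fell (9.72 ± 0.974 against 17.4 ± 1.20 TPM, -0.79). The median log2 fold changes of these lists were -0.12 and -0.01. No difference between the lists was tested. With GC and length taken out the signalling list had 1 gene called higher and 1 lower, and the end joining list 0 either way. Neither RIF1 nor LIG4 was called in that fit (limma adjusted p = 0.243 and 0.116). Both calls were lost without sh-LINC00958 replicate 1, without its replicate 3 and without either sh-NC library, at adjusted p from 0.0656 to 0.187.

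Cell cycle genes were measured beside them, since many repair genes follow the cycle. Of 20 G2 and mitosis genes 9 fell and 0 rose (15 lower and 0 higher at an unadjusted limma p under 0.05), with a median log2 fold change of -0.42. Among all tested genes 5.68% were called lower and 4.12% higher. CDK1 (-1.25), ANLN (-0.86), CCNA2 (-0.84) and KIF23 (-0.58) had the smallest p. For 18 of the 20 the hairpin libraries lay wholly below the controls, beside 25.5% of all tested genes. Of 20 S phase genes 2 fell, the cyclin E genes CCNE2 (-0.9997) and CCNE1 (-0.42), 1 rose, E2F1 (0.35), and the median was -0.04. That is 10% lower and 5% higher, beside 5.68% and 4.12% of all genes. These 3 S phase calls were each lost without any library but sh-LINC00958 replicate 2. With GC and length taken out E2F1 was at 0.13 (limma adjusted p = 0.296) and CCNE2 at -0.66 (0.0521), and neither was called, while CCNE1 was (-0.48, 0.0261). In that same fit 10 of the 20 G2 and mitosis genes were called lower and 0 higher, with a median of -0.32, beside 2.73% of all genes called lower. The G2 and mitosis count was 0 without sh-LINC00958 replicate 1 or either control library, 10 without replicate 2 and 4 without replicate 3. The part of cell cycle stage in the repair gene values was not tested. The lists were chosen with earlier results of these data known.

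**Figure D5:**
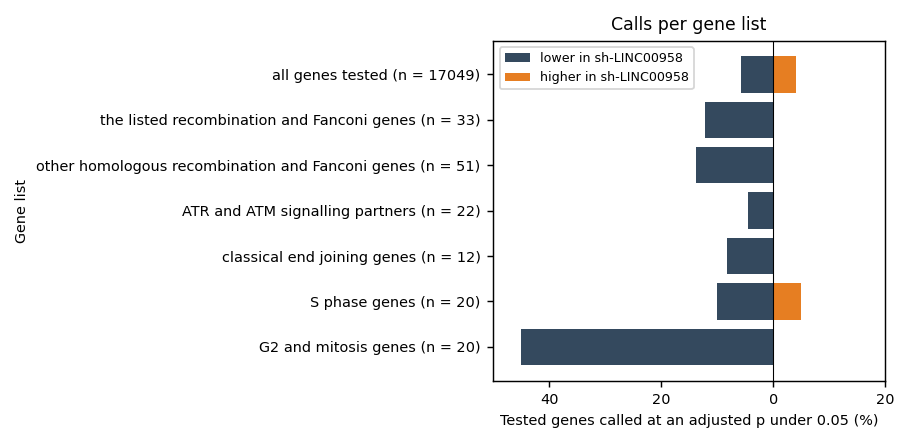
Share of tested genes called lower (bars to the left) and higher (bars to the right) in sh-LINC00958, in percent, for all genes and for the lists of recombination, damage signalling, end joining and cell cycle genes. The listed recombination and Fanconi genes have 12.1% lower, beside 5.68% of all genes and 45.0% of G2 and mitosis genes.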

How the data were processed

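RNA was sequenced from 3 sh-LINC00958 and 2 sh-NC libraries made from 1 µg of RNA each. The values are TPM deposited by the authors, 1 column per library. Per the submitters' processing notes, HISAT2 2.0 and StringTie 1.3.3b were used on build GRCh38, with FastQC 0.11.2 and Trimmomatic 0.36 for the reads. Not given in the sources used here are the annotation release, strand setting and filters. TPM makes each value relative to its library and keeps no depth.

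Groups came from sample titles. log2(TPM + 1) was fitted in R 4.3.3 with limma 3.58.1 (lmFit, eBayes with a mean-variance trend) for genes with a mean of at least 1 TPM. All 17049 two-sided p-values were adjusted together (Benjamini-Hochberg, threshold 0.05). The fit was also run on simulated data with larger planted changes than those of the repair genes, which does not test their calls. Fold changes on this scale understate those of low genes. Exon overlaps, GC content (median over transcripts) and exon length came from GENCODE 29. The GC and length trend was a smooth fit per library (mgcv 1.9.3). No further scaling was applied.

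Members and lists were chosen with earlier results of these data known. All members are named. Values per library are given for those called, or with groups apart and a change of at least 0.3, and for others where useful. Of each list the called genes, or the 4 with the smallest p, are named, and the list of nucleotide excision repair genes, pooled with the others in the closing counts, is not reported on its own here. Alternatives covered pseudocount, filter, scaling, trend, GC and length, replicate block and each library left out.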

Additional observations from a re-analysis of the deposited data

How the results depend on the processing

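Under all 15 alternatives the RBBP8, BRIP1, CHEK1 and FANCB log2 fold changes stayed below 0, and 0 of the 33 genes were called higher in any (3 at an unadjusted p under 0.05 as reported). RBBP8 ran from -1.52 to -1.15, BRIP1 from -0.92 to -0.36, CHEK1 from -0.53 to -0.30 and FANCB from -0.73 to -0.22. The number of the 33 called lower, 4 as reported, was 1 without a filter, 2 in limma without the trend and 1 with the GC and length trend removed. In that order, all genes gave 207, 371 and 392 higher (702 as reported) and 269, 518 and 466 lower (969). Among 143 tested genes, the 6 repair and cell cycle lists together gave 2 higher and 21 lower as reported, beside 4.12% and 5.68% of all genes. Of the 21, 9 were G2 and mitosis genes. The lists gave 1 and 8 without a filter and 1 and 13 in limma without the trend. With the GC and length trend removed they gave 2 and 15. A filter of 5 TPM gave 4 higher and quantile normalization 5 higher. Replicate numbers 1 and 2 are shared by the groups, but the labels tie them to nothing. Deviations of same-numbered libraries correlated at 0.0013 and 0.0497, and those of sh-LINC00958 replicate 3 and sh-NC replicate 1 at 0.0483. The deviations of 2 controls from their mean mirror each other, so these values cannot tell whether the numbers mark a shared batch. With the replicate block, 1 residual degree of freedom remains and limma called 0 genes higher and 2 lower, 0 of the 33 genes (2 higher and 9 lower at an unadjusted p under 0.05) and 0 of the lists (13 and 39). With the block and the trend removed it called 0 and 0, 0 of the 33 (1 and 5 unadjusted) and 0 of the lists (13 and 28). Leaving out 1 library in turn gave 10 to 905 genes higher and 6 to 1491 lower. Of the 33 genes it gave 0 to 5 lower, with 0 without sh-NC replicate 2, 1 without sh-NC replicate 1 or sh-LINC00958 replicate 1 or 3, and 5 without sh-LINC00958 replicate 2. For the lists it gave 0 to 3 higher and 0 to 26 lower. A lone control is then assumed to vary like the other group. The cause of these shifts was not tested.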

Other observations

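Several of these genes start close to a neighbour that is read in the other direction, and 9 such neighbours had a mean of at least 1 TPM. NPAT, a histone gene coactivator whose annotated start is 158 bases from that of ATM, fell from 21.5 ± 0.758 to 14.0 ± 1.67 TPM (SD, n = 2 and 3, log2 fold change -0.59, limma adjusted p = 0.0431), beside -0.56 for ATM, which did not pass. MOSPD2, 372 bases from FANCB, fell from 29.9 ± 0.467 to 20.4 ± 2.37 TPM (-0.54, adjusted p = 0.0479), beside -0.64 for FANCB. ZFYVE21, 226 bases from XRCC3, rose from 56.6 ± 0.567 to 85.1 ± 2.08 TPM (0.58, adjusted p = 0.0165), while XRCC3 was at 0.01.

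DNASE1 (0.43, adjusted p = 0.0550) beside SLX4, MRPL27 (0.29) beside EME1 and CIDECP (0.54) beside FANCD2 did not pass in limma. Neither did NBR1 (0.01) beside BRCA1, FKBP3 (-0.43) beside FANCM or DCTN5 (1.01) beside PALB2. Starts were taken at the outer end of each gene model, and BRCA1 has another RefSeq start much further from NBR1. With GC and length taken out, NPAT was at -0.28, MOSPD2 at -0.18 and ZFYVE21 at 0.46, and of these only ZFYVE21 was called in limma (adjusted p = 0.0241). DCTN5 had 28.4, 81.5 and 92.5 TPM in sh-LINC00958 and 27.8 and 30.6 TPM in sh-NC, so that sh-LINC00958 replicate 1 sat with the controls. The calls of NPAT, MOSPD2 and ZFYVE21 were lost without any single library but sh-LINC00958 replicate 2 (adjusted p from 0.0521 to 0.195). These neighbours were looked up after the values of the repair genes were seen.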
